A study of Mus musculus with 8 samples.

Results

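The 10 genes described here encode the enzymes of the pentose phosphate pathway and the cytosolic dehydrogenases beside it that form NADPH. They were chosen by gene name, with earlier results of these data known. All 10 were found among the 22564 genes measured by RNA-Seq in the liver. HFrD mice 1, 2, 5 and 7 were fed a high fructose diet (HFrD) and ND mice 1, 3, 6 and 7 a normal diet (ND), each for 2 weeks. The HFrD supplied 10% of its energy as fat, 70% as carbohydrate and 20% as protein, and the composition of the ND is not given in the sources used here. All 8 animals were male C57BL/6J mice (C57BL/6 in the labels) of 10 to 11 weeks without a transgene or a gene deletion in the labels. The paper gives that age for the mice at purchase and states no age at sampling. Each numbered liver library was taken as 1 mouse.

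NADPH carries the electrons that fatty acid and cholesterol synthesis consume and that keep glutathione and thioredoxin reduced. In the liver it is formed in the cytosol by malic enzyme 1 (*Me1*), which turns malate into pyruvate, by isocitrate dehydrogenase 1 (*Idh1*), which turns isocitrate into 2-oxoglutarate, and by the oxidative branch of the pentose phosphate pathway. In that branch glucose-6-phosphate dehydrogenase (*G6pdx*) and 6-phosphogluconate dehydrogenase (*Pgd*) each form NADPH, with 6-phosphogluconolactonase (*Pgls*) between them, whereas *H6pd* serves the first steps inside the endoplasmic reticulum. The non-oxidative branch (*Rpia*, *Rpe*, *Taldo1* and *Tkt*) interconverts ribulose, ribose and xylulose phosphates with intermediates of glycolysis. Genes of malic enzyme and of the oxidative branch are known to be raised in rodent liver by refeeding with carbohydrate.

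The deposited unit is FPKM, in which fragments are scaled both to transcript length and to the size of the library, so that levels of different genes can be compared per length. Groups were compared with limma on log2(FPKM + 1) over 11476 genes whose mean reached 0.5 FPKM, a limit that all 10 genes passed. A gene was counted as changed at a Benjamini-Hochberg adjusted p under 0.05. Among all genes tested 1047 changed (9.12%), of which 624 were higher in HFrD mice (5.44% of those tested), and in 1102 (9.60%) the lowest HFrD mouse exceeded the highest ND mouse. The hepatocyte markers summed to 39376 to 47221 FPKM in HFrD mice and 32061 to 40642 FPKM in ND mice, with *Alb* the highest of them. Of these 8 markers 1 was higher in HFrD mice and 7 did not pass. The absolute depth is unknown. Relative to ND mouse 1 it was estimated at 1.13 to 1.49 in the HFrD libraries and 0.990 to 1.17 in the ND libraries. In a whole liver, a change in the share of a cell type and a change in the RNA per cell cannot be told apart.

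Several short motifs were searched in RefSeq promoter windows of the 10 genes. The core of the antioxidant response element (TGACNNNGC on either strand) matched in windows of 3 genes, *Me1*, *G6pdx* and *Pgd*. That element is bound by the transcription factor Nrf2. A relation of these matches to the differences between the diets was not tested. A window holds the 250 bases before and the 50 bases after an annotated start site of GRCm38.p6, and 13 windows covered the 10 genes. The matches are shown as stretches of 30 bases on the strand of the gene, with the 9 bases of the match in capitals, to show that they differ in sequence and in position.
Me1: gatgccgccgTGACTCAGCgcttctcgcgg
G6pdx: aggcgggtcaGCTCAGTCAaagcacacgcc
Pgd: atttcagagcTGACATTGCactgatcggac
The *Me1* stretch (chr9:86695901-86695930, minus strand) crosses the start site, with the match beginning at position -6. The 39 bases just before that start site are annotated in GENCODE as exon of *Me1*, so that the match begins in exon. The *G6pdx* match begins at position -57 and reads in the reverse direction (chrX:74428918-74428947, minus strand). The start site of that window is 314 bases inside the GENCODE gene, and all 250 bases before it are annotated there as exon of *G6pdx*. The *Pgd* match lies at position 4 of the second of its start sites (chr4:149166060-149166089, minus strand), which is 689 bases inside the gene. The 250 bases before that site also lie inside the gene and hold 0 bases annotated as exon. The window of the first *Pgd* start site held no match to the core. Of all 32851 windows 12.4% held the core, which is a share of windows and not of genes. A match is a description of the letters and not a measured site.

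Further upstream of *Me1*, the 211 bases before its first annotated exon (chr9:86695954-86696164, minus strand, from position -250) are shown because *Me1* had the largest rise and this stretch is rich in G and C. Capitals mark the GC box, GGGCGG or its reverse complement CCGCCC.
Me1: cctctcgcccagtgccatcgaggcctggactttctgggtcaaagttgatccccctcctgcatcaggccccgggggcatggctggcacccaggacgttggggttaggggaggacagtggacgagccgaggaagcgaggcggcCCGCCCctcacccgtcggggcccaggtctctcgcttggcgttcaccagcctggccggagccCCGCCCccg
The GC box was in a window of 9 of the 10 genes (35.7% of all windows), the exception being *H6pd*, and CCAAT or its complement in windows of 6 genes (37.4% of all windows). These counts are per gene and the shares per window, and some genes had more than 1 window, so that they are not like measures. No window of the 10 genes held the E box CACGTG, the sterol element core TCACNCCAC or TATAAA, which 7.15%, 1.24% and 13.6% of all windows held. The GC box was thus found both in genes that rose and in genes that did not pass the test.

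Of the 10 genes, 4 were higher in HFrD mice (*Me1*, *G6pdx*, *Pgd* and *Pgls*), 0 were lower and 6 did not pass the test. Their median log2 fold change was 0.50, and that of all genes tested was 0.01. The same 4 genes had every HFrD mouse above every ND mouse. Over all genes tested 5.44% were higher, and 9.60% had every HFrD mouse above every ND mouse. The 10 genes were chosen with earlier results of these data known. These counts, and those by step that follow, were not tested against the shares. By step, 1 of the 2 dehydrogenases outside the pathway rose, 3 of the 4 genes of the oxidative branch rose, and 0 of the 4 genes of the non-oxidative branch passed the test.

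**Figure D1:**
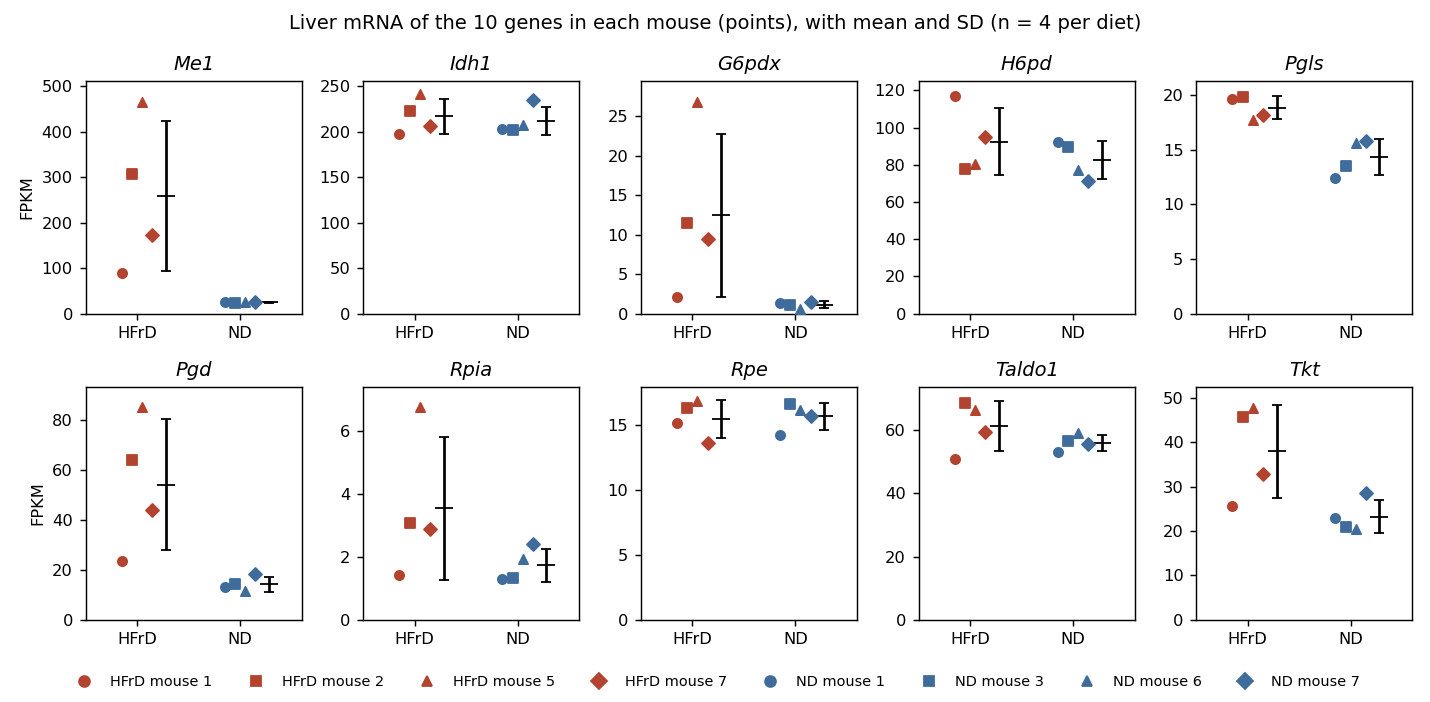
FPKM of each of the 10 genes (y axis, linear from 0) in the 4 HFrD mice (red) and the 4 ND mice (blue). Symbols mark the mice, and the black bars give the mean and SD of each diet. *Me1*, *G6pdx*, *Pgd* and *Pgls* show no overlap between the diets, and HFrD mouse 5 is the highest point for 7 of the 10 genes among HFrD mice.

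*Me1* had 88.8, 306, 465 and 173 FPKM in HFrD mice 1, 2, 5 and 7, against 26.6, 22.4, 24.7 and 25.8 FPKM in ND mice 1, 3, 6 and 7. The ND mice lay close together, whereas the highest HFrD mouse, mouse 5, stood far above the lowest, mouse 1, and the groups did not overlap. The mean was 258 ± 164 FPKM in HFrD mice and 24.9 ± 1.81 FPKM in ND mice (SD, n = 4 each), a ratio of 10.4. On the log2(FPKM + 1) scale *Me1* was higher by 3.08 (SE 0.40, 95% interval 2.17 to 3.98, limma adjusted p = 0.00248), the 9th largest rise among the changed genes. An exact two-sided permutation test gave p = 0.0286, the smallest that the 70 divisions of 8 mice allow. By mean level *Me1* ranked 233rd of all genes in HFrD livers and 2072nd in ND livers. *Me1* lies at chr9:86581371-86695953 on the minus strand of mm10 and shares 30 exon bases with the antisense gene *A330041J22Rik*.

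*Idh1*, the other cytosolic dehydrogenase, did not pass the test. It had 198, 222, 241 and 207 FPKM in HFrD mice, against 203, 202, 207 and 235 FPKM in ND mice, and the groups overlapped. The means were 217 ± 19.1 FPKM in HFrD mice and 212 ± 15.6 FPKM in ND mice (SD, n = 4 each), with a log2 difference of 0.03 and a 95% interval from -0.17 to 0.23 (limma adjusted p = 0.856). In ND mice *Idh1* stood far above *Me1* in every animal. The ratio of *Me1* to *Idh1* was 0.449, 1.38, 1.93 and 0.840 in HFrD mice and 0.110 to 0.131 in ND mice, so that *Me1* exceeded *Idh1* in HFrD mice 2 and 5.

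The first gene of the oxidative branch, *G6pdx* (chrX:74409483-74429194, minus strand), encodes the enzyme that sets the entry of glucose 6-phosphate into the pathway. It had 2.12, 11.5, 26.7 and 9.42 FPKM in HFrD mice, against 1.37, 1.05, 0.552 and 1.51 FPKM in ND mice. All HFrD mice lay above all ND mice, but HFrD mouse 1 was close to the highest ND mouse. The mean was 12.4 ± 10.3 FPKM in HFrD mice and 1.12 ± 0.423 FPKM in ND mice (SD, n = 4 each), a ratio of 11.1 that was 6.88 without HFrD mouse 5. The log2 difference was 2.31 (SE 0.52, 95% interval 1.14 to 3.47, limma adjusted p = 0.0242, exact permutation p = 0.0286). The call was kept in 3 of 8 fits that left out 1 mouse (without HFrD mouse 1, HFrD mouse 5 or ND mouse 7), and in the other 5 the adjusted p reached 0.0643. It was also lost without the filter on low values (adjusted p = 0.0616 in limma). *G6pdx* shares 418 exon bases (13.6%) with *Ikbkg* on the opposite strand. Its autosomal copy *G6pd2* was listed at 0 in all 8 libraries.

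*Pgls*, the lactonase of the second step (chr8:71592176-71601092, plus strand), changed little in size. It had 19.7, 19.8, 17.7 and 18.2 FPKM in HFrD mice, against 12.5, 13.5, 15.6 and 15.8 FPKM in ND mice, which do not overlap. The ratio of the means was 1.31 and the log2 difference 0.38 (SE 0.10, limma adjusted p = 0.0417, exact permutation p = 0.0286). This call stood near the threshold and was kept in 1 of 8 fits that left out a mouse (without ND mouse 7), and the adjusted p in limma reached 0.108. The call was also lost without the filter on low values, with equal medians and without the variance trend (adjusted p = 0.0520, 0.0510 and 0.0554 in limma). *Pgls* shares 776 exon bases (20.6%) with *Fam129c* on the same strand, so that reads of the shared part cannot be assigned by strand.

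*Pgd*, which forms the second NADPH of the branch (chr4:149149991-149166771, minus strand), had 23.7, 63.7, 84.8 and 43.7 FPKM in HFrD mice. In ND mice it had 13.0, 14.2, 11.3 and 18.5 FPKM, and the groups did not overlap. The mean was 54.0 ± 26.3 FPKM in HFrD mice and 14.2 ± 3.05 FPKM in ND mice (SD, n = 4 each), a ratio of 3.79. The log2 difference was 1.73 (SE 0.33, 95% interval 1.00 to 2.45, limma adjusted p = 0.0120, exact permutation p = 0.0286). *Pgd* and *Me1* were called in all 8 fits that left out 1 mouse.

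*H6pd*, the enzyme of the endoplasmic reticulum (chr4:149979475-150009023, minus strand), did not pass the test. It had 117, 77.8, 80.2 and 94.8 FPKM in HFrD mice, against 92.2, 89.6, 77.4 and 71.2 FPKM in ND mice. Here HFrD mouse 1 was the highest of the 8 and HFrD mice 2 and 5 lay within the range of the ND mice. The log2 difference was 0.15 with a 95% interval from -0.16 to 0.46 (limma adjusted p = 0.540). In ND mice *H6pd* was 47.2 to 140 times the level of *G6pdx* per length, and in HFrD mice at most 55.1 times, in mouse 1.

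**Figure D2:**
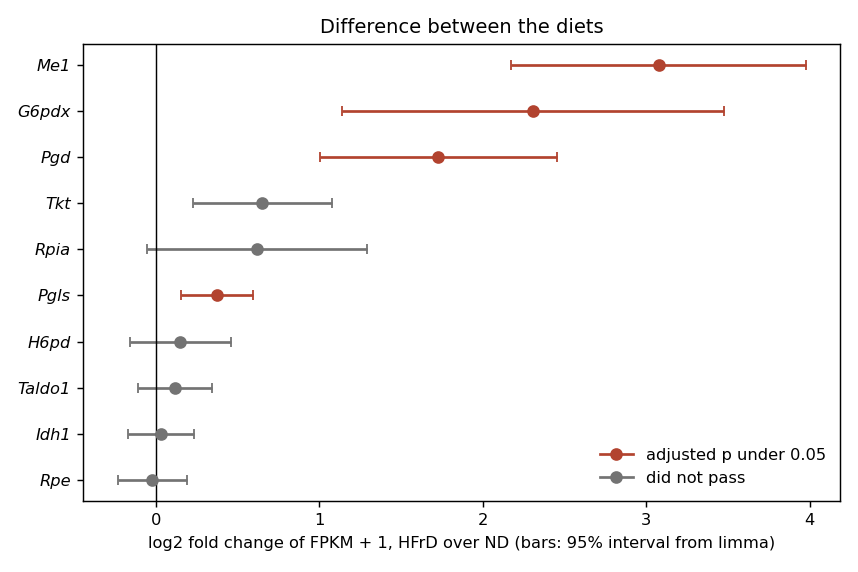
Difference between HFrD and ND mice on the log2(FPKM + 1) scale (x axis) for each gene (y axis), with 95% intervals from limma (n = 4 mice per diet). Red points passed an adjusted p under 0.05. *Me1*, *G6pdx* and *Pgd* lie above 1, *Pgls* lies at 0.38 with a narrow interval, and *Tkt* and *Rpia* have larger estimates than *Pgls* but wider intervals.

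In the non-oxidative branch no gene passed the test, and the estimates ranged from -0.02 to 0.65. *Tkt*, transketolase (chr14:30548359-30574720, plus strand), came nearest. It had 25.5, 45.6, 47.6 and 32.8 FPKM in HFrD mice, against 22.8, 20.9, 20.5 and 28.6 FPKM in ND mice, so that 3 of 4 HFrD mice lay above all ND mice and HFrD mouse 1 lay below ND mouse 7. The mean was 37.9 ± 10.5 FPKM in HFrD mice and 23.2 ± 3.70 FPKM in ND mice (SD, n = 4 each). The log2 difference was 0.65 (SE 0.19, 95% interval 0.23 to 1.08), with a limma adjusted p of 0.0607 and an exact permutation p of 0.0571. *Tkt* passed the threshold without HFrD mouse 1 (adjusted p = 0.0114 in limma) and without ND mouse 7 (adjusted p = 0.0495 in limma).

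*Rpia*, ribose-5-phosphate isomerase (chr6:70765720-70792232, minus strand), had 1.41, 3.08, 6.75 and 2.89 FPKM in HFrD mice, against 1.28, 1.34, 1.91 and 2.40 FPKM in ND mice. HFrD mice 2, 5 and 7 lay above all ND mice, and HFrD mouse 1 lay among them. The log2 difference was 0.62 (SE 0.30, limma adjusted p = 0.235, exact permutation p = 0.143), while the ratio of the means was 2.04.

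*Taldo1*, transaldolase (chr7:141392199-141402968, plus strand), had 50.9, 68.5, 66.3 and 59.4 FPKM in HFrD mice, against 53.1, 56.6, 59.2 and 55.5 FPKM in ND mice. HFrD mouse 1 was the lowest of all 8, and the log2 difference was 0.12 (95% interval -0.11 to 0.34, limma adjusted p = 0.505). *Rpe*, ribulose-5-phosphate 3-epimerase (chr1:66700831-66719805, plus strand), had 15.2, 16.3, 16.9 and 13.6 FPKM in HFrD mice, against 14.3, 16.7, 16.2 and 15.7 FPKM in ND mice. These groups overlapped, with a log2 difference of -0.02 (95% interval -0.23 to 0.19, limma adjusted p = 0.918). *Rpe* shares 558 exon bases (17.9%) with *Kansl1l* on the opposite strand.

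By mean level per length, the order in HFrD mice was *Me1* (258 FPKM), *Idh1* (217), *H6pd* (92.4), *Taldo1* (61.3), *Pgd* (54.0), *Tkt* (37.9), *Pgls* (18.9), *Rpe* (15.5), *G6pdx* (12.4) and *Rpia* (3.53). In ND mice it was *Idh1* (212 FPKM), *H6pd* (82.6), *Taldo1* (56.1), *Me1* (24.9), *Tkt* (23.2), *Rpe* (15.7), *Pgls* (14.3), *Pgd* (14.2), *Rpia* (1.73) and *G6pdx* (1.12). Several neighbours overlapped between mice, namely *Me1* with *Idh1*, *Pgd* with *Taldo1* and *Tkt*, and *G6pdx* with *Rpe* and *Rpia* in HFrD mice, and *Me1* with *Tkt*, *Pgls* with *Rpe* and *Pgd*, and *Rpia* with *G6pdx* in ND mice. By mean level *G6pdx* and *Rpia* were the lowest pair on both diets. In HFrD mouse 5, however, *G6pdx* (26.7 FPKM) was above *Pgls* (17.7 FPKM) and *Rpe* (16.9 FPKM).

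Summed over the 5 dehydrogenases (*Me1*, *Idh1*, *G6pdx*, *Pgd* and *H6pd*), the genes reached 429, 682, 898 and 528 FPKM in HFrD mice, against 336, 330, 321 and 352 FPKM in ND mice. The sum averaged 634 ± 204 FPKM in HFrD mice and 335 ± 13.1 FPKM in ND mice (SD, n = 4 each), without overlap. *Me1* made up 20.7 to 51.8% of it in HFrD mice and 6.80 to 7.90% in ND mice, whereas *Idh1* made up 26.9 to 46.1% in HFrD mice and 60.4 to 66.8% in ND mice. *G6pdx* was at most 2.98% of the sum in HFrD mice and 0.428% in ND mice, and *Pgd* at most 9.45% in HFrD mice and 5.24% in ND mice. These are shares of mRNA and not of NADPH formed.

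**Figure D3:**
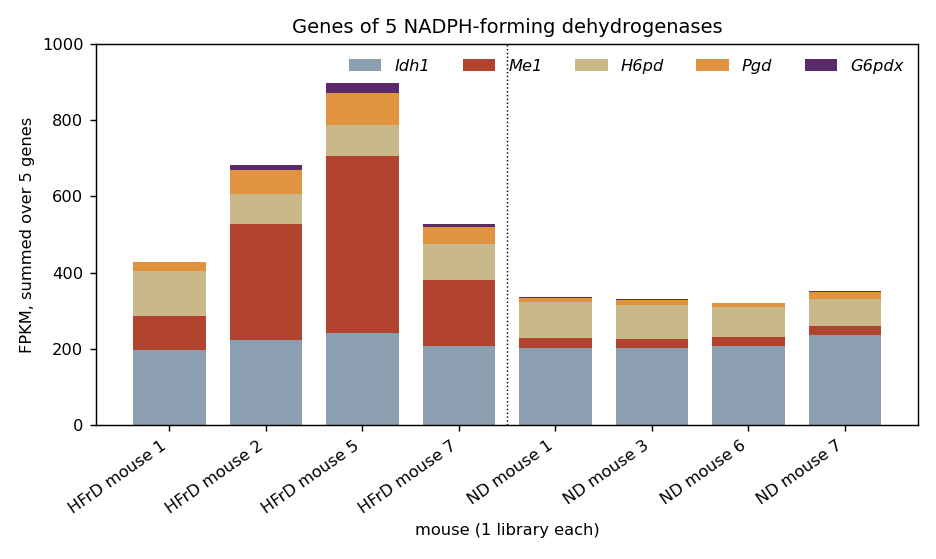
Summed FPKM (y axis, from 0) of *Idh1*, *Me1*, *H6pd*, *Pgd* and *G6pdx* as stacked bars, 1 bar per mouse, HFrD mice left of ND mice. The HFrD bars reach 429 to 898 FPKM and the ND bars 321 to 352 FPKM, and the *Idh1* segment stays between 198 and 241 FPKM in all 8 mice while the *Me1* segment differs.

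Within the oxidative branch the genes also moved by unequal amounts. Without *H6pd* its sum was 45.5 to 129 FPKM in HFrD mice and 26.8 to 35.8 FPKM in ND mice, without overlap. *Pgls* was 0.209 to 0.832 of the level of *Pgd* in HFrD mice and 0.857 to 1.38 of it in ND mice, also without overlap, since *Pgd* rose more than *Pgls*. The ratio of *Pgd* to *G6pdx* was 3.18 to 11.2 in HFrD mice and 9.50 to 20.5 in ND mice, where HFrD mouse 1 fell among the ND mice. The summed non-oxidative branch overlapped between the diets, at 93.0 to 138 FPKM in HFrD mice and 91.5 to 102 FPKM in ND mice. The ratio of *Tkt* to *Taldo1* was 0.502 to 0.718 in HFrD mice and 0.347 to 0.515 in ND mice, which overlap.

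The HFrD mice differed from each other in much the same order for most of the genes. In 6 of the 10 genes (*Me1*, *Idh1*, *G6pdx*, *Pgd*, *Rpia* and *Tkt*) HFrD mouse 5 was highest, followed by mice 2, 7 and 1. HFrD mouse 1 was the lowest HFrD mouse in 7 genes. The share of all genes tested with the order of mice 5, 2, 7 and 1 was not determined. Of genes named below, *Acly*, *Fasn* and *Gpi1* had that order as well, and *Elovl5* did not. The order was turned in *H6pd*, where mouse 1 was highest and mouse 2 lowest, and in *Pgls*, where mouse 2 was highest and mouse 5 lowest. Among ND mice, mouse 7 was highest in 6 genes. The 10 genes were read from the same libraries, so that these orders are not independent of each other. Without HFrD mouse 1 and ND mouse 7 the number of changed genes among the 10 was also 4. *Tkt* passed in that fit (adjusted p = 0.00780 in limma) and *Pgls* did not (adjusted p = 0.0535 in limma).

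**Figure D4:**
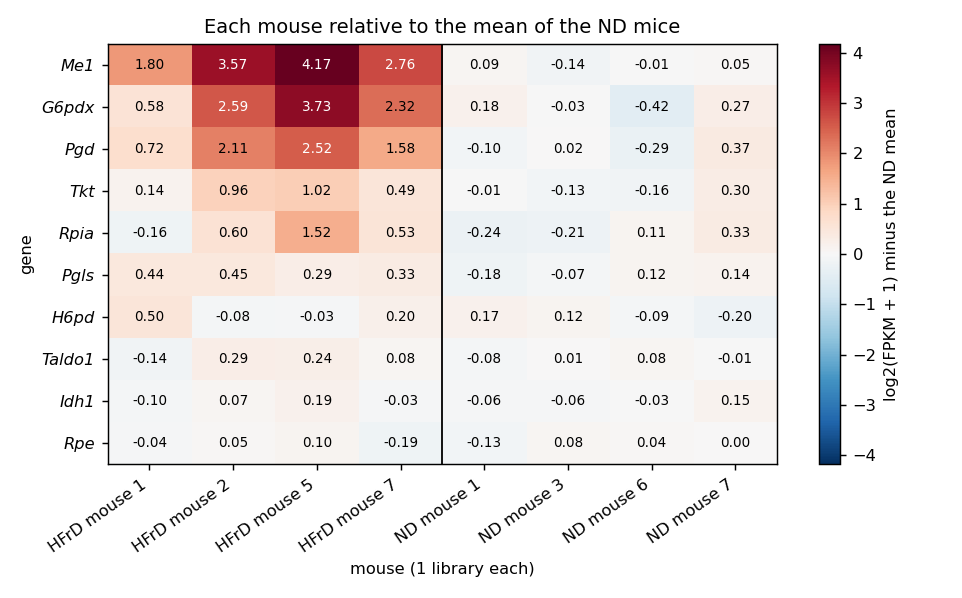
log2(FPKM + 1) of each gene (rows) in each mouse (columns, HFrD left of ND) minus the mean of the ND mice, as numbers and colour (red above, blue below the ND mean). *Me1*, *G6pdx* and *Pgd* are red in every HFrD mouse, with HFrD mouse 5 at 4.17, 3.73 and 2.52 and HFrD mouse 1 at 1.80, 0.58 and 0.72.

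Markers of some other liver cells differed between the diets as well. Of 11 Kupffer cell and macrophage markers tested, 8 were higher in HFrD mice and 0 were lower, and their FPKM summed to 342, 226, 293 and 285 in HFrD mice 1, 2, 5 and 7, against 161, 185, 112 and 137 in ND mice 1, 3, 6 and 7. These groups do not overlap. The HFrD mouse with the highest sum of these markers, mouse 1, had the lowest *Me1*, *G6pdx* and *Pgd* of the HFrD mice. The HFrD mouse with the next highest sum, mouse 5, had the highest *Me1*, *G6pdx* and *Pgd*. Endothelial markers summed to 82.9 to 96.9 FPKM in HFrD mice and 64.6 to 77.2 FPKM in ND mice, with 2 of 7 higher. Lymphocyte markers summed to 1.02 to 2.20 FPKM in HFrD mice and 2.24 to 3.14 FPKM in ND mice. Only 1 of these 8 markers reached the filter of 0.5 FPKM, and it did not pass the test. Neutrophil markers summed to 4.74 to 12.2 FPKM in HFrD mice and 3.64 to 12.0 FPKM in ND mice, with *Ly6g* listed at 0. Of these 8 markers 2 were tested and 0 passed. Of 6 stellate cell and 2 cholangiocyte markers tested, 0 passed the test, and of 5 erythroid markers 1 was lower. Over all genes tested 5.44% were higher and 9.12% changed, and the counts of markers were not tested against these shares. The part of these cells in the results above was not tested.

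Of 10 further pentose phosphate and ribose genes tested, 1 was higher and 9 did not pass, with a median log2 fold change of 0.04. Over all genes tested 5.44% were higher, and such a count is not set apart from that share. The gene that rose was *Gpi1*, glucose-6-phosphate isomerase, which links the pathway to glycolysis. It had 65.6, 130, 173 and 102 FPKM in HFrD mice, against 30.1, 37.5, 31.6 and 31.7 FPKM in ND mice, and the groups did not overlap (log2 difference 1.74, SE 0.24, limma adjusted p = 0.00303). *Pgm2*, a phosphoglucomutase, had a log2 difference of 0.09 (limma adjusted p = 0.453), and *Dera*, deoxyribose-phosphate aldolase, averaged 28.2 ± 4.96 FPKM in HFrD mice and 28.3 ± 1.61 FPKM in ND mice (SD, n = 4 each). Neither passed the test. *Tktl1*, *Tktl2* and *Prps1l1* were listed at 0 in all libraries.

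Among 9 further sources of NADPH and NADP that were tested, 1 was higher, 1 was lower and 7 did not pass. The share that changed over all genes tested was 9.12%, and the count was not tested against it. The pair that changed were the NAD kinases, which make NADP from NAD. The cytosolic kinase *Nadk* had 54.1, 54.8, 56.2 and 52.8 FPKM in HFrD mice, against 43.6, 43.2, 44.7 and 41.7 FPKM in ND mice (log2 difference 0.32, SE 0.07, limma adjusted p = 0.0190). The mitochondrial kinase *Nadk2* had 54.4, 47.0, 41.9 and 38.9 FPKM in HFrD mice, against 61.2, 68.9, 69.6 and 61.9 FPKM in ND mice (log2 difference -0.52, SE 0.11, limma adjusted p = 0.0184). Neither gene overlapped between the diets, and they differed in opposite directions. The most abundant genes of the list, *Glud1*, *Aldh1l1* and *Mthfd1*, and the mitochondrial dehydrogenase *Idh2* did not pass the test.

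Of 9 genes that make, convert or transport citrate, malate or pyruvate, 2 were higher and 7 did not pass. The share that was higher over all genes tested was 5.44%, and the count was not tested against it. *Acly*, ATP citrate lyase, averaged 597 ± 339 FPKM in HFrD mice and 70.3 ± 27.4 FPKM in ND mice (log2 difference 2.93, limma adjusted p = 0.00348, n = 4 each). *Pcx*, pyruvate carboxylase, averaged 135 ± 8.38 FPKM in HFrD mice and 91.4 ± 5.47 FPKM in ND mice (log2 difference 0.56, limma adjusted p = 0.00348, n = 4 each). The most abundant of the others were *Mdh1*, cytosolic malate dehydrogenase, at 294 ± 38.1 FPKM in HFrD mice and 300 ± 29.3 FPKM in ND mice, and the pyruvate carrier subunit *Mpc2*, at 133 ± 7.99 FPKM in HFrD mice and 137 ± 21.6 FPKM in ND mice (SD, n = 4 each).

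Of 16 genes whose enzymes spend NADPH, 2 were higher, 1 was lower and 13 did not pass, with a median log2 fold change of 0.01. Over all genes tested 9.12% changed, and the count was not tested against that share. *Fasn*, fatty acid synthase, averaged 390 ± 257 FPKM in HFrD mice and 56.9 ± 28.9 FPKM in ND mice (log2 difference 2.57, limma adjusted p = 0.0143, n = 4 each). *Tecr*, the reductase of the last step of fatty acid elongation, averaged 77.9 ± 12.1 FPKM in HFrD mice and 48.1 ± 2.70 FPKM in ND mice (log2 difference 0.67, limma adjusted p = 0.00823, n = 4 each). The gene that was lower was *Por*, which passes electrons of NADPH to the cytochromes P450, at 79.5 ± 29.0 FPKM in HFrD mice and 160 ± 30.8 FPKM in ND mice (log2 difference -1.05, limma adjusted p = 0.0261, n = 4 each). The aldehyde reductase gene *Akr1a1*, and *Gsr*, *Txnrd1* and *Nqo1*, which serve the reduction of glutathione, thioredoxin and quinones, did not pass the test.

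Of 10 regulators known to act on such genes, 1 was higher and 9 did not pass. Over all genes tested 5.44% were higher, and such a count is not set apart from that share. *Keap1*, the adaptor that holds Nrf2 in the cytosol, averaged 9.95 ± 0.778 FPKM in HFrD mice and 7.61 ± 0.211 FPKM in ND mice (log2 difference 0.34, limma adjusted p = 0.0412, n = 4 each). *Nfe2l2*, the gene of Nrf2, had a log2 difference of 0.23 (limma adjusted p = 0.317). The lipogenic factors *Mlxipl* and *Srebf1* averaged 80.8 ± 6.01 and 55.2 ± 12.6 FPKM in HFrD mice, against 84.2 ± 8.91 and 62.7 ± 17.7 FPKM in ND mice (SD, n = 4 each), and did not pass, nor did *Ppara*.

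**Figure D5:**
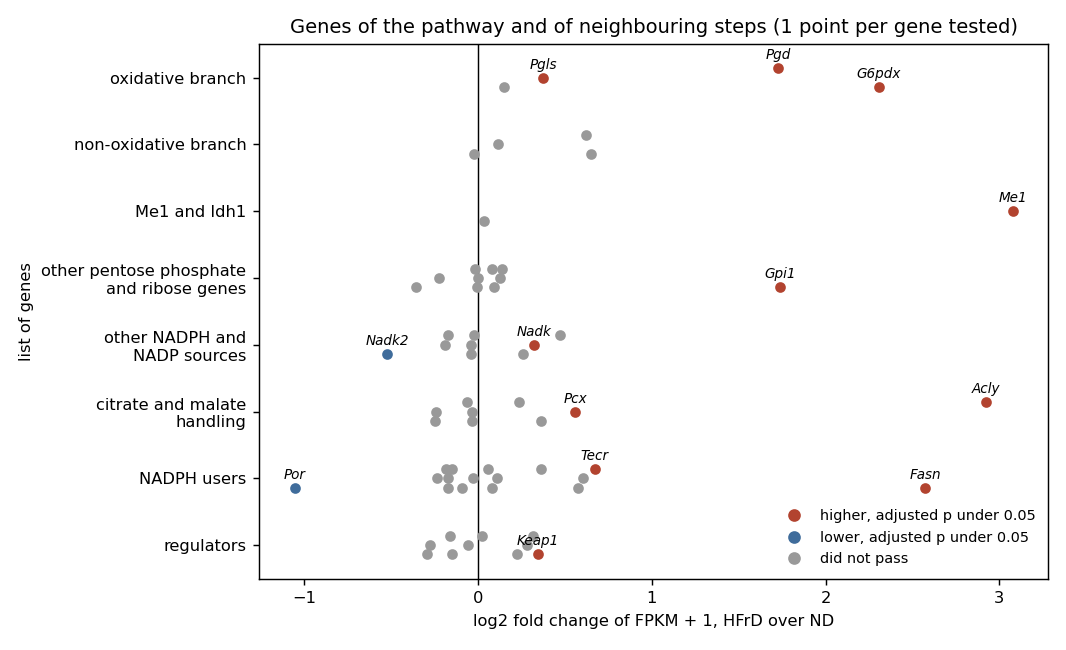
Log2 fold change of FPKM + 1, HFrD over ND (x axis), for each gene tested in 8 lists (y axis), 1 point per gene. Red points were higher and blue points lower in HFrD mice at a limma adjusted p under 0.05, and these are named. The larger rises are in a few genes of several lists (*Me1*, *Acly*, *Fasn*, *G6pdx*, *Gpi1* and *Pgd*), while most grey points lie near 0. Of these, *G6pdx* and *Pgd* are both in the list of the oxidative branch.

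The genes whose values over the 8 libraries lay closest to each changed gene were found by the mean absolute gap of log2(FPKM + 1), each taken from its ND mean. For *Me1* they were *Acly*, *Elovl5*, *Elovl6*, *Pnpla3* and *Pdzk1ip1*, with gaps of 0.24 to 0.33, where the median gene lay at 1.62. *Elovl5* and *Elovl6* encode fatty acid elongases. For *G6pdx* they were *Acaca*, *Fasn*, *Acpp*, *Gpam* and *Elovl6* (nearest gap 0.25, median 1.29), of which *Acaca* and *Fasn* encode the enzymes of fatty acid synthesis from acetyl-CoA and *Gpam* the first acyltransferase of glycerolipid synthesis. For *Pgd* they were *Slc17a4*, *Got1*, *Gpi1*, *Ugt1a5* and *Acpp* (nearest gap 0.15, median 0.99), where *Got1* encodes cytosolic aspartate aminotransferase and *Ugt1a5* shares exons with other *Ugt1a* genes. For *Pgls* they were *Egln2*, *Elf4*, *Cib1*, *Tmem192* and *Calu* (nearest gap 0.06, median 0.30). The gap of a gene with a small change is small to many genes, so that these gaps cannot be compared between *Pgls* and *Me1*.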

How the data were processed

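Liver RNA was sequenced after removal of ribosomal RNA in 8 libraries, each taken as 1 mouse. The library kit differs between the sources used here (NEBNext directional in the paper, TruSeq stranded in the labels), and the strand setting and annotation release are not given in them. The authors trimmed reads with Cutadapt 1.9.3, aligned them to mm10 with HISAT2 2.0.4 and deposited FPKM per gene, and the processing notes also name Cufflinks and Cuffdiff. FPKM are scaled to each library by the authors, so that counting errors cannot be given. Columns of the authors' own comparisons (fold changes and p-values) were not used. Neither MeRIP-Seq nor the *db/db* model was analysed here.

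The labels gave the diet and number of each mouse. FPKM were taken as log2(FPKM + 1), which understates changes of low genes. The 11476 genes whose mean reached 0.5 FPKM were fitted with limma 3.58.1 in R 4.3.3 (eBayes with a variance trend) on all 8 libraries without covariates, with Benjamini-Hochberg adjustment over these genes. Single genes were also compared by exact two-sided permutation over the 70 divisions of the mice. Each numbered library was taken as 1 mouse, and p-values measure the spread between these libraries. The limma procedure was tested on simulated data with 50 genes changed at each of 4 sizes. At log2 changes of 0.5, 1, 2 and 3 it recovered 16, 40, 46 and 49 of them, and it called 7 unchanged genes. A gene with a small change can thus fail to pass the test. Gene positions are those of GENCODE M21, and promoter windows are from RefSeq (GRCm38.p6). Plots were drawn with matplotlib 3.10.9 under Python 3.11.15, from tables made with numpy 2.4.6 and pandas 2.3.3.

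The genes, lists and tests were chosen with earlier results of these data known. Named were the 10 genes, the changed and the 3 most abundant genes of each further list, and the 5 nearest genes of each changed gene. Of these, 1 gene that this rule names is not reported here. Genes named beyond this (*Idh2*, *Gsr*, *Txnrd1*, *Nqo1*, *Nfe2l2* and those listed at 0) were chosen after their values were seen. *Tigar* and *Adgre1* of these lists matched no gene symbol in the table. Alternative fits left out each mouse in turn, left out HFrD mouse 1 and ND mouse 7 together, took the mouse number as a replicate block, dropped the variance trend, scaled libraries to equal medians or quantiles, used a pseudocount of 0.1, or set the filter to a mean of 1 FPKM or to none. Mouse numbers 1 and 7 occur on both diets, and the deviations of same-numbered mice from their diet means correlated at 0.08 and -0.01 across genes, so that the numbers were not taken as pairs.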

Additional observations from a re-analysis of the deposited data

Results flagged for a closer look

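In groups of 4 mice, the highest or lowest mouse was compared with the nearest of the others, for 50 groups of values. Chance alone marks about 1 in 20 such groups. *Idh1* in ND mouse 7 was 235.0 FPKM, far above the other ND mice (gap over the range 0.86). The ratio of *H6pd* to *G6pdx* in HFrD mouse 1 was 55.1, far above the other HFrD mice (gap over the range 0.86), where *G6pdx* was lowest and *H6pd* highest of the HFrD mice.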

How the results depend on the processing

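Over all genes 539 to 1293 changed when 1 mouse was left out, and 2 to 5 of the 10 genes did. Of the 16 alternatives, *Me1* and *Pgd* were each called in 15, *G6pdx* in 9, *Pgls* in 4 and *Tkt* in 3. With no filter the changed genes among the 10 numbered 2, with *G6pdx* (adjusted p = 0.0616 in limma) and *Pgls* (adjusted p = 0.0520 in limma) no longer past the threshold. *Pgls* also missed it with equal medians (adjusted p = 0.0510 in limma) and without the variance trend (adjusted p = 0.0554 in limma). With the mouse number as a replicate block, which only numbers 1 and 7 inform, 2 genes changed in all and 0 of the 10, with a limma adjusted p of 0.131 for *Me1* and 0.147 for *Pgd*. *Idh1* then had a log2 difference of -0.11. With 1 mouse left out, *Idh1* ranged from -0.0190 to 0.0839 and *Rpe* from -0.0630 to 0.0361 on the log2 scale. Without HFrD mouse 1 and ND mouse 7, *H6pd* had a log2 difference of -0.0367. The split of higher against lower genes was 624 to 423, against 568 to 542 under quantile normalization and 552 to 614 with equal medians. *Me1*, *G6pdx*, *Pgls*, *Pgd*, *Rpia*, *Taldo1* and *Tkt* were above 0 in all 16 alternatives. The causes of these differences were not tested.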
